A study of Tachysurus vachellii with 6 samples.

Results

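Gill transcripts of 15 genes from 4 families of the circadian clock were measured in hybrid yellow catfish kept at low or ordinary oxygen. The families were the period, cryptochrome, Rev-erb and clock genes. Of the 28288 genes in the deposited table, 4 were taken by name (LOC113640651, LOC113640397, per3 and nr1d1). A further 11 were taken because their description names a period circadian protein, a cryptochrome, a nuclear receptor of subfamily 1 group D (the Rev-erb receptors) or a circadian locomoter protein (CLOCK). The fish were a cross of Tachysurus fulvidraco females with Pseudobagrus vachellii males. Dissolved oxygen was 1.5 mg/L for the hypoxia group and 6.5 mg/L for the normoxia group, and gills of both were taken at 96 h. Each group had 9 fish, whose RNA was mixed by 3 into 3 hypoxia and 3 normoxia libraries, so a library is an average over 3 fish. Both groups had been acclimated under a natural photoperiod and fasted before the trial, and age, sex and strain are not given in the labels. The groups were taken from the sample titles, while the treatment protocol names hypoxia for all 6 samples. The clock time of sampling is not given in the labels, so each value is 1 point of any daily cycle, and neither phase nor amplitude was measured.

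The vertebrate clock is a feedback loop of transcription. CLOCK and BMAL proteins bind E-box sites together and drive the period, cryptochrome and Rev-erb genes. Period and cryptochrome proteins then enter the nucleus and inhibit CLOCK and BMAL, and they are degraded before the next cycle. Rev-erb receptors repress, and ROR receptors activate, the transcription of BMAL genes from shared sites. In zebrafish, clocks of peripheral organs can be set by light directly, and per2 and cry1a are known there as light-induced genes. BMAL is a member of the same bHLH-PAS protein family as the subunits of hypoxia-inducible factor. Fishes carry extra copies of several of these genes from a genome duplication, so a family can hold more members than in mammals.

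The most abundant period gene, per3, and both nr1d genes described as member 1 were lower in hypoxia, while 1 of the 2 genes described as period 2-like was higher. Of the 15 members, 6 passed the test over all genes (edgeR's quasi-likelihood test on counts, Benjamini-Hochberg adjusted p under 0.05), 1 higher and 5 lower in hypoxia. Over all 15312 genes tested, 9.54% passed, 5.39% higher and 4.15% lower in hypoxia. The 4 members taken by name all passed, and they were proposed with their results known, so their count is no evidence about the families. Of the 11 members taken by description, 2 passed, both lower in hypoxia. The median log2 change of the 15 members was -0.57, that of the 11 taken by description was -0.56, and that of all genes tested was -0.04. All 15 members passed the filter of at least 1 FPKM (fragments scaled for transcript length and library depth) in at least 3 of 6 libraries. Their counts ran from 62 to 11341 per library, at library totals of 44762764 to 55016223. In FPKM, the 3 hypoxia and 3 normoxia values did not overlap in 10 members, with hypoxia above in 1 and below in 9. These include the 4 taken by name, so this count too is no evidence about the families. Of the 11 taken by description, hypoxia lay below in 6 and above in 0. Over all genes tested the FPKM did not overlap in 37.3%, with hypoxia above in 11.4% and below in 25.9%. FPKM carry no TMM scaling (edgeR's correction for library composition), whereas the log2 changes do, so the change given beside FPKM values need not equal their ratio. With library totals alone the median of all genes moved to -0.20, and changes are given relative to the TMM centre.

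**Figure D1:**
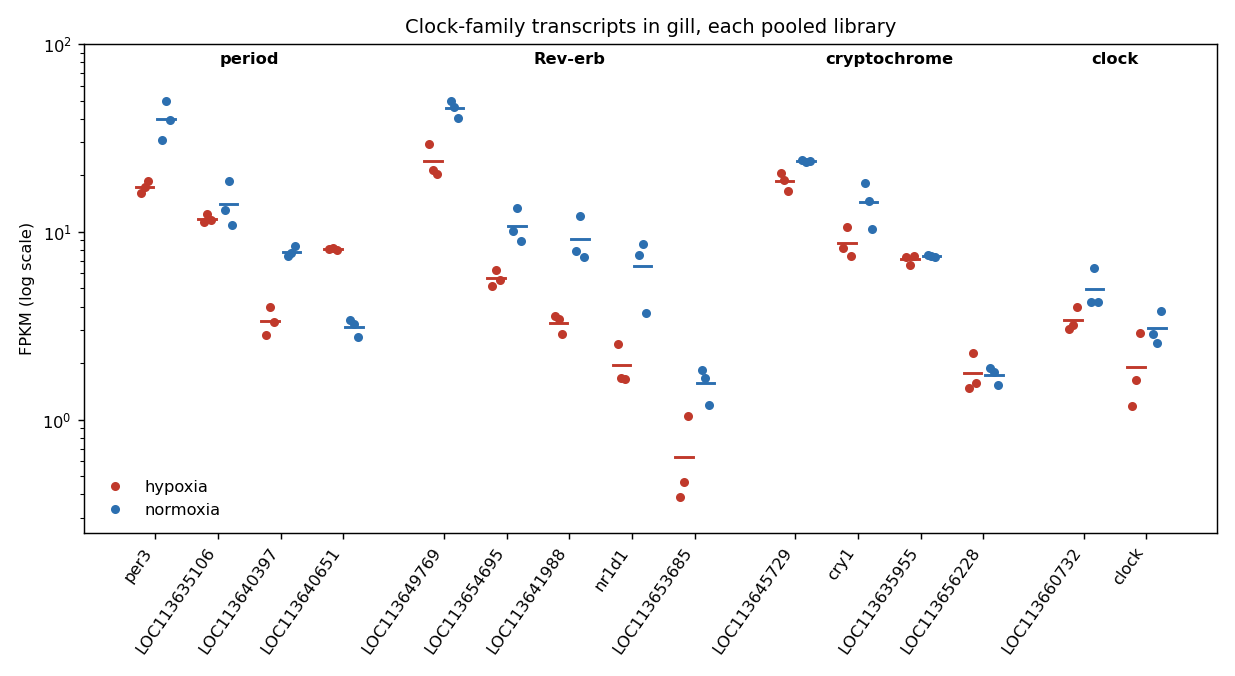
FPKM on a log scale for the 15 members, with 1 point per pooled library and a line at the mean of each group (n = 3 libraries), hypoxia left of normoxia. The points of LOC113640651 lie at 7.99 to 8.16 FPKM in hypoxia, above 2.74 to 3.37 in normoxia. The 5 Rev-erb genes, of which nr1d1 was taken by name with its result known, lie lower in hypoxia without overlap. Of all genes tested, 25.9% lie lower in this way, in FPKM without TMM scaling.

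Several measures that could move with any gill transcript are given once. The hypoxia-induced gene egln3, which encodes a prolyl hydroxylase of the oxygen-sensing pathway, had 65.8, 78.6 and 75.9 FPKM in the hypoxia libraries and 7.10, 4.57 and 11.8 FPKM in the normoxia libraries. The 3 gill ionocyte markers found of 5 listed summed to 71.2 to 99.5 FPKM in hypoxia and 45.8 to 91.1 FPKM in normoxia. Most of that sum was rhcg (log2 difference 0.58), while slc12a2 differed the other way (-0.47), and none of the 3 passed the test. The summed levels of immune cell markers were lower in hypoxia. The 2 T cell markers found of 4 listed summed to 47.2 to 54.7 FPKM in hypoxia and 75.7 to 85.2 FPKM in normoxia, and neither passed the test. The 2 B cell markers found of 3 listed summed to 4.69 to 5.99 FPKM in hypoxia and 10.5 to 24.2 FPKM in normoxia, and cd79a fell. The 2 macrophage and neutrophil markers found of 4 listed summed to 23.3 to 29.2 FPKM in hypoxia and 37.4 to 42.9 FPKM in normoxia. Of these spi1 fell, while csf1r overlapped between the groups and did not pass the test (log2 difference -0.09, edgeR adjusted p = 0.699). The summed levels of 7 erythrocyte genes, all described as hemoglobin subunits, overlapped between the groups. So did those of the 2 endothelium markers found of 4 listed. The levels of krt18, the 1 epithelium marker found of 4 listed, and actn3, the 1 skeletal muscle marker found of 3 listed, also overlapped. None of those tested passed. The neural genes gfap and elavl3 were at 0 counts in all 6 libraries, and the 4 neural and retinal markers summed to 1.48 to 2.0 FPKM in hypoxia and 2.46 to 4.12 FPKM in normoxia. That sum came from rho and snap25, and neither passed the test (edgeR adjusted p = 0.144 and 0.487). Genes described as cytosolic ribosomal proteins took 14.6% to 21.4% of the counts in hypoxia, with the highest share in replicate 1, and 14.3% to 14.9% in normoxia. The part of these differences in the clock gene values was not tested. In RNA of a whole organ, fewer cells of a type and less RNA per cell cannot be told apart.

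The symbols and descriptions of the members come from the deposited table, 14 of them by likeness to channel catfish proteins, and position gave a second description. For each member the 8 genes on either side on its scaffold were compared by symbol with the RefSeq gene order of Tachysurus vachellii, the paternal species (assembly HZAU_Pvac_v1). In 13 of 15 members at least 1 such neighbour lay within 15 genes of a named period, cryptochrome, nr1d or clock gene there. LOC113640651 shared pask, gigyf2 and snorc with the surroundings of per2. LOC113640397 has amotl1, usp45 and prss35 as neighbours, and none of them lay near a named clock gene in that assembly. The 2 genes described as period 2-like therefore stand in different gene neighbourhoods. LOC113635106, described as period 1-like, shared 6 neighbours with per1b. Among the Rev-erb genes, LOC113649769 shared 3 neighbours with nr1d2a, LOC113654695 shared 5 with nr1d2b, and LOC113641988, described as nr1d1-like, shared mfsd5 and ccnt1 with nr1d4a. LOC113653685 has 4 neighbours on its scaffold, none of which has a symbol. Among the cryptochromes, LOC113645729 shared 5 neighbours with cry1a, cry1 shared 7 with cry1b and LOC113635955 shared 7 with cry2. LOC113656228, described as cryptochrome-1-like, shared 5 neighbours with cry3a. Shared neighbours describe position and are not an identification. How alike the members are in sequence was not analysed here, so reads could be split between close copies in ways that are not known.

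The period genes differed in direction. LOC113640651 (scaffold NW_020848380.1, 756407 to 800972, plus strand, in coordinates of the deposited table, whose build is not stated) had 8.07, 8.16 and 7.99 FPKM in the hypoxia libraries and 3.37, 3.23 and 2.74 FPKM in the normoxia libraries. All 3 hypoxia values were higher than all 3 normoxia values, and the hypoxia libraries lay close together. The gene rose 2.90-fold, a log2 change of 1.53 ± 0.15 (SE, edgeR adjusted p = 0.00666). It was called in each of the 6 fits that left out 1 library and in each of 13 other settings, with log2 changes of 1.14 to 1.77. Period 2 protein inhibits CLOCK and BMAL, and in zebrafish the transcript of per2 is induced by light.

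LOC113640397 (scaffold NW_020848356.1, 3995387 to 4005835, minus strand), the other gene described as period 2-like, moved the opposite way. It had 2.81, 3.98 and 3.31 FPKM in the hypoxia libraries and 7.41, 7.73 and 8.36 FPKM in the normoxia libraries. The groups were far apart, with the highest hypoxia library below the lowest normoxia library. The gene fell 2.08-fold (log2 change -1.06 ± 0.16, edgeR adjusted p = 0.0192). Its call was kept in 3 of 6 fits without 1 library. It was lost without replicate 1 of hypoxia (edgeR adjusted p = 0.0556) and without replicates 2 and 3 of normoxia in turn (edgeR adjusted p = 0.0676 and 0.0637).

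The period 3 gene per3 (scaffold NW_020848002.1, 1181584 to 1203739, minus strand) is known in mammals as a period gene that the core oscillation can do without. It had 16.1, 17.2 and 18.7 FPKM in the hypoxia libraries and 30.9, 49.5 and 39.2 FPKM in the normoxia libraries. The normoxia libraries spread more, and the lowest of them still stood above every hypoxia library. The gene fell 2.05-fold (log2 change -1.04 ± 0.17, edgeR adjusted p = 0.0241). That call was kept only without normoxia replicate 1 among the 6 fits without 1 library, where the log2 change ran from -1.15 to -0.86 and the edgeR adjusted p from 0.0296 to 0.0745. LOC113635106, the period 1-like gene, had 11.3, 12.4 and 11.5 FPKM in hypoxia and 13.1, 18.5 and 10.8 FPKM in normoxia. Its groups overlapped, and its log2 difference of -0.11 ± 0.21 did not pass the test (edgeR adjusted p = 0.770) and turned positive with a correction for transcript length (0.16) and without normoxia replicate 2 (0.13).

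The make-up of the period family shows the same values without any scaling between libraries. LOC113640651 made up 21.1%, 19.5% and 19.2% of the summed FPKM of the 4 period genes in hypoxia and 6.16%, 4.09% and 4.48% in normoxia. The share of per3 was 42.8% ± 2.0 in hypoxia and 61.1% ± 4.07 in normoxia (mean ± SD, n = 3 libraries per group here and below). For LOC113635106, whose level did not pass the test, the share was 29.0% ± 1.08 in hypoxia and 21.7% ± 3.43 in normoxia. A share thus moves with the levels of the other genes too. The summed level of the 4 genes was 38.3 to 41.8 FPKM in hypoxia and 54.7 to 79.0 FPKM in normoxia. Within a library the FPKM ratio of LOC113640651 to LOC113640397 was 2.87, 2.05 and 2.42 in hypoxia and 0.456, 0.419 and 0.328 in normoxia. Thus LOC113640651 was the more abundant of the pair in every hypoxia library and the less abundant in every normoxia library. The ratio of LOC113640651 to per3 was 0.427 to 0.502 in hypoxia and 0.0653 to 0.109 in normoxia. These ratios were chosen after the values were seen and carry no test.

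**Figure D2:**
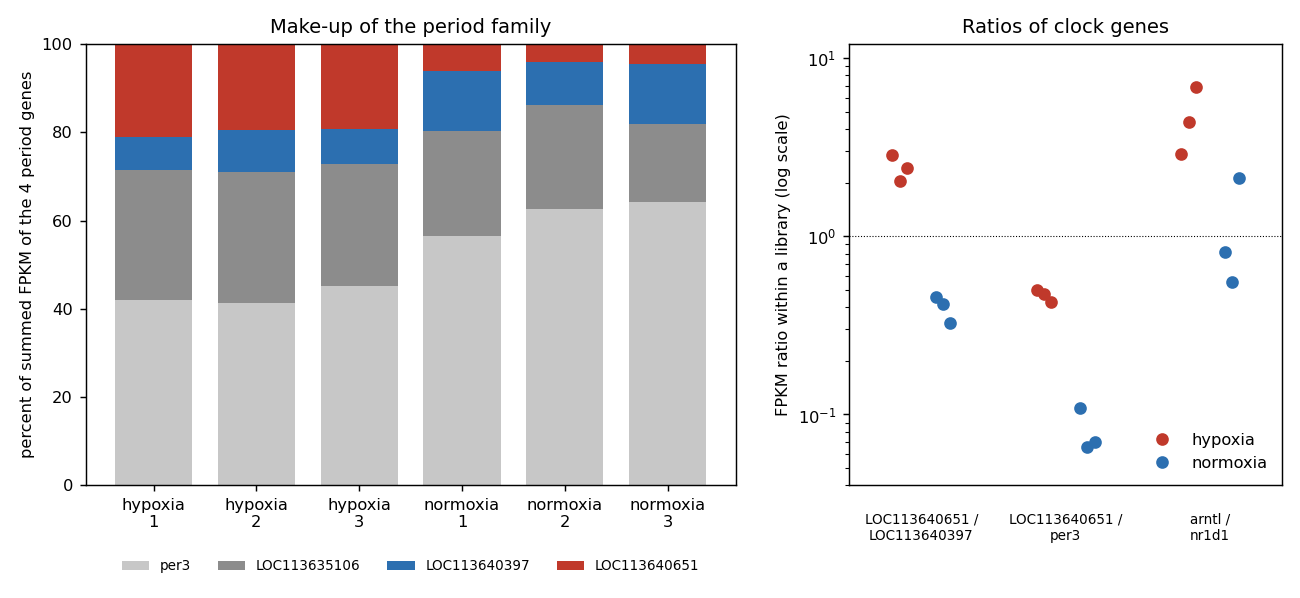
Left, percent of the summed FPKM of the 4 period genes in each library, hypoxia left of normoxia; LOC113640651 takes 19.2% to 21.1% in hypoxia and 4.09% to 6.16% in normoxia. Right, FPKM ratios within a library on a log scale, 1 point per library, with a dotted line at equal levels; the ratio of LOC113640651 to LOC113640397 lies above that line in hypoxia and below it in normoxia.

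The Rev-erb genes had values below 0 in all 5 members, with log2 changes from -1.58 to -0.76 and a median of -1.18. Of the 5, 3 fell past the threshold, and in all 5 the hypoxia FPKM lay below the normoxia FPKM without overlap, against 4.15% and 25.9% of all genes tested. Of these nr1d1 was taken by name with its result known, and of the 4 taken by description 2 fell. The gene nr1d1 (scaffold NW_020848262.1, 949113 to 956691, minus strand) encodes REV-ERB alpha, a heme-binding receptor that represses transcription. It had 2.53, 1.66 and 1.65 FPKM in the hypoxia libraries and 7.52, 8.61 and 3.69 FPKM in the normoxia libraries. Normoxia replicate 3 was the lowest of its group and stood nearest to the hypoxia libraries. The gene fell 3.0-fold (log2 change -1.58 ± 0.38, edgeR adjusted p = 0.0465). Without normoxia replicate 3 the log2 change was -1.88 and the call was kept (edgeR adjusted p = 0.0473), and it was lost in the other 5 fits without 1 library (edgeR adjusted p from 0.0672 to 0.138). It was also lost with no filter on low genes, with filterByExpr, with the length correction and with edgeR without an abundance trend. With the replicate number as a block the call was lost too (edgeR adjusted p = 0.0574).

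LOC113641988 (scaffold NW_020848400.1, 1626950 to 1641683, plus strand), the gene with neighbours of nr1d4a, had 3.57, 3.43 and 2.87 FPKM in hypoxia and 7.94, 12.1 and 7.32 FPKM in normoxia. Here too every hypoxia library was lower than every normoxia library. It fell 2.45-fold (log2 change -1.29 ± 0.24, edgeR adjusted p = 0.0302), and the call was kept only without normoxia replicate 1 among the fits without 1 library. LOC113654695 (scaffold NW_020847961.1, 1620154 to 1630661, minus strand), described as member 2-like, had 5.15, 6.27 and 5.52 FPKM in hypoxia and 10.1, 13.3 and 8.90 FPKM in normoxia. Its fall of 1.70-fold (log2 change -0.77 ± 0.19, edgeR adjusted p = 0.0491) stood at the threshold. The call was lost in all 6 fits without 1 library and in 6 of 13 other settings.

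The most abundant Rev-erb gene was LOC113649769 (scaffold NW_020847880.1, 3854026 to 3861063, plus strand), also member 2-like. It had 29.3, 21.4 and 20.4 FPKM in hypoxia and 49.5, 46.3 and 40.4 FPKM in normoxia. The groups were well apart, yet its log2 difference of -0.76 ± 0.22 did not pass the test (edgeR adjusted p = 0.0712). It passed in 5 of 13 other settings, among them library totals alone (edgeR adjusted p = 0.0315), DESeq2 and limma. None of the 6 fits without 1 library called it (edgeR adjusted p from 0.051 to 0.177). An undescribed gene on the other strand, LOC113649773, overlaps it, with 4 to 44 counts per library, and whether the counting used strand is not stated. The least abundant, LOC113653685, had 0.389, 0.467 and 1.05 FPKM in hypoxia and 1.84, 1.67 and 1.19 FPKM in normoxia, with hypoxia replicate 3 near normoxia replicate 3. Its log2 difference was -1.18 ± 0.41 (edgeR adjusted p = 0.109). The summed level of the 5 Rev-erb genes was 40.9, 33.3 and 31.5 FPKM in hypoxia and 76.9, 82.0 and 61.5 FPKM in normoxia. Within the family LOC113649769 took 66.9% ± 4.02 of the summed level in hypoxia and 62.2% ± 4.96 in normoxia, and the libraries of the 2 groups overlapped. Within the normoxia group all 5 genes were lowest in replicate 3, as were 10 of all 15 members, so this is not particular to the Rev-erb genes.

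**Figure D3:**
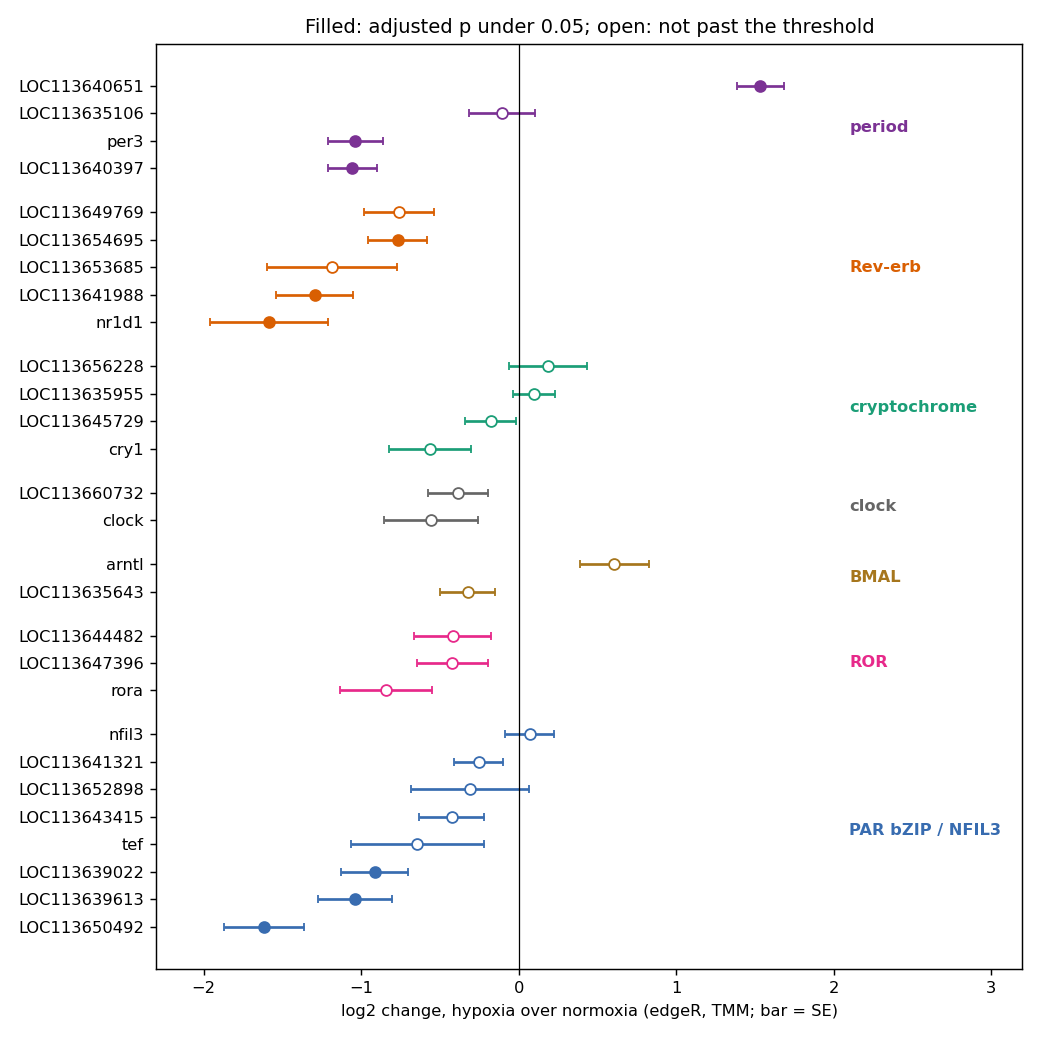
Log2 change of hypoxia over normoxia with its SE (edgeR, TMM scaling, 3 against 3 libraries) for the 15 members and the BMAL, ROR, PAR bZIP and NFIL3 genes tested, filled where the adjusted p was under 0.05. All 5 Rev-erb genes lie between -1.58 and -0.76, and LOC113640651 at 1.53 is the only filled point above 0.

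None of the 4 cryptochrome genes passed the test in edgeR, none had an unadjusted p under 0.05 and none was called by DESeq2 or limma. Over all 15312 genes tested, 9.54% passed in edgeR and 4643 had an unadjusted p under 0.05. DESeq2 called 3332 of them and limma, with a pseudocount of 1, called 1366. With 4 genes a count of 0 cannot be told apart from these shares. Cryptochromes bind period proteins and are the stronger inhibitors of CLOCK and BMAL in the loop. The most abundant, LOC113645729 (scaffold NW_020847801.1, 5749743 to 5764527, minus strand), had 20.6, 18.9 and 16.5 FPKM in hypoxia and 24.1, 23.6 and 23.7 FPKM in normoxia. Its FPKM did not overlap, but its log2 difference with TMM scaling was -0.18 ± 0.16 (edgeR adjusted p = 0.501). The gene cry1 had 8.16, 10.6 and 7.41 FPKM in hypoxia and 18.2, 14.7 and 10.4 FPKM in normoxia. Its groups overlapped slightly, and its log2 difference was -0.57 ± 0.26 (edgeR adjusted p = 0.195). LOC113635955, the cryptochrome-2-like gene, had 6.64 to 7.41 FPKM in hypoxia and 7.39 to 7.48 FPKM in normoxia, with overlap. Its log2 difference was 0.10 ± 0.14, of the opposite sign with library totals alone (-0.08). LOC113656228, with neighbours of cry3a, had 1.47 to 2.26 FPKM in hypoxia and 1.54 to 1.87 FPKM in normoxia, and its log2 difference was 0.19 ± 0.25 (-0.04 without hypoxia replicate 2).

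Neither of the 2 genes of CLOCK, the partner of BMAL, passed the test in edgeR, and neither had an unadjusted p under 0.05 or was called by DESeq2 or limma. With 2 genes this too cannot be told apart from the shares over all genes given above. The gene clock (scaffold NW_020848411.1, 670406 to 725454, minus strand) had 1.18, 1.62 and 2.90 FPKM in hypoxia and 2.86, 2.56 and 3.77 FPKM in normoxia. Hypoxia replicate 3 lay inside the normoxia range, and the log2 difference was -0.56 ± 0.30 (edgeR adjusted p = 0.252). LOC113660732, the clock gene with neighbours of clockb, had 3.04, 3.18 and 3.99 FPKM in hypoxia and 4.21, 6.38 and 4.25 FPKM in normoxia, without overlap. Its log2 difference was -0.38 ± 0.19 (edgeR adjusted p = 0.226).

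The order of the members by level, which FPKM allows since they are per length, shifted between the groups. In both groups LOC113649769 was the highest on average, at 23.7 ± 4.87 FPKM in hypoxia and 45.4 ± 4.62 FPKM in normoxia, and LOC113653685 was the lowest. LOC113640651 was number 6 of 15 in hypoxia and number 12 in normoxia. In hypoxia its range lay within that of cry1 above it and apart from that of LOC113635955 below it. In normoxia it lay apart from that of LOC113660732 above it and overlapped that of clock below it. Over all 6 libraries each of the 14 pairs of neighbours in the order overlapped. In the mean over the 6 libraries, per3 lay above 84.5% of the genes tested and nr1d1 above 31.6%.

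The partners, regulators and outputs of the loop were counted from a textbook list with 33 genes in the table, of which 27 were tested. Of these 3 fell and none rose, against 4.15% lower and 5.39% higher among all genes tested, with a median log2 difference of -0.31. The list was drawn with earlier results of these data known, so its count is no evidence about the pathway. All 3 that fell belong to the PAR bZIP factors and NFIL3, which bind D-box sites of clock-driven genes, the first as activators and NFIL3 as a repressor. The hepatic leukemia factor gene LOC113650492 had 6.21, 5.85 and 5.61 FPKM in hypoxia and 27.4, 17.5 and 15.6 FPKM in normoxia. The hypoxia libraries lay close together and far below the normoxia libraries, and the gene fell 3.07-fold (log2 change -1.62 ± 0.25, edgeR adjusted p = 0.0209). Its call was kept in all 13 other settings and in 2 of 6 fits without 1 library, those without normoxia replicate 1 or 3. The hepatic leukemia factor-like gene LOC113639022 had 1.63, 2.02 and 2.30 FPKM in hypoxia and 4.28, 3.38 and 4.81 FPKM in normoxia. It fell 1.89-fold (log2 change -0.91 ± 0.21, edgeR adjusted p = 0.0454), a call lost in all 6 fits without 1 library. The NFIL3-like gene LOC113639613 had 6.0, 3.80 and 4.64 FPKM in hypoxia and 10.0, 13.1 and 10.4 FPKM in normoxia. It fell 2.06-fold (log2 change -1.04 ± 0.24, edgeR adjusted p = 0.0424), a call kept only without hypoxia replicate 1 among the fits without 1 library. The more abundant nfil3 differed by 0.07 ± 0.16 on the log2 scale, of the opposite sign with library totals alone (-0.095). The D site-binding protein gene LOC113643415 differed by -0.42 ± 0.21 (edgeR adjusted p = 0.215). The thyrotroph embryonic factor genes tef, LOC113641321 and LOC113652898 had log2 differences of -0.64, -0.25 and -0.31, none past the threshold.

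Among the BMAL genes, arntl, which encodes BMAL1, had 7.36, 7.30 and 11.3 FPKM in hypoxia and 6.14, 4.8 and 7.85 FPKM in normoxia. The groups overlapped, and the log2 difference of 0.61 ± 0.22 did not pass the test (edgeR adjusted p = 0.119, and 0.0615 to 0.276 over the other settings). It was positive in all 19 of them and called in none, and these settings reuse the same libraries, so they are no separate evidence. The second BMAL1-like gene, LOC113635643, had 8.80 to 9.47 FPKM in hypoxia and 10.8 to 15.2 FPKM in normoxia, with a log2 difference of -0.32 ± 0.17 (edgeR adjusted p = 0.257). The BMAL2-like gene LOC113652737 was below the FPKM filter and was not tested, at 0.229 to 0.487 FPKM in hypoxia and 0.863 to 1.42 FPKM in normoxia. The ratio of arntl to nr1d1 within a library was 2.91, 4.39 and 6.85 in hypoxia and 0.817, 0.557 and 2.13 in normoxia. These values did not overlap, and no test was made on a ratio chosen after the values were seen. Among the ROR receptors rora, LOC113647396 and LOC113644482 had log2 differences of -0.84, -0.42 and -0.42, none past the threshold in edgeR. Of the 3, 1 had an unadjusted p under 0.05, and DESeq2 called rora. Over all 15312 genes tested, 4643 had an unadjusted p under 0.05 and DESeq2 called 3332. The repressor gene LOC113660099, described as circadian-associated and named after its values were seen, had 46.5, 37.8 and 35.7 FPKM in hypoxia and 91.5, 70.4 and 68.3 FPKM in normoxia. The groups did not overlap, and the edgeR adjusted p was 0.0653 (log2 difference -0.77 ± 0.21). It passed in 5 of 13 other settings, among them DESeq2, limma and library totals alone, and in none of the 6 fits without 1 library. The output gene nampt, also named after its values were seen, differed the other way. It had 36.6, 36.2 and 41.3 FPKM in hypoxia and 33.4, 25.8 and 31.2 FPKM in normoxia, without overlap. Its log2 difference of 0.49 ± 0.14 did not pass the test (edgeR adjusted p = 0.0693). Among 13 other settings only DESeq2 called nampt, and none of the 6 fits without 1 library did. The second gene of each description overlapped between the groups. The circadian-associated LOC113652836 was not tested, at 0.402 to 0.741 FPKM in hypoxia and 0.505 to 0.896 FPKM in normoxia. The nampt-like LOC113661848 did not pass the test (log2 difference 0.40, edgeR adjusted p = 0.19). The other repressor and output genes tested from the list overlapped and did not pass either. The casein kinase 1 delta and epsilon genes were not analysed here, since the table describes genes as casein kinase I without naming those forms.

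**Figure D4:**
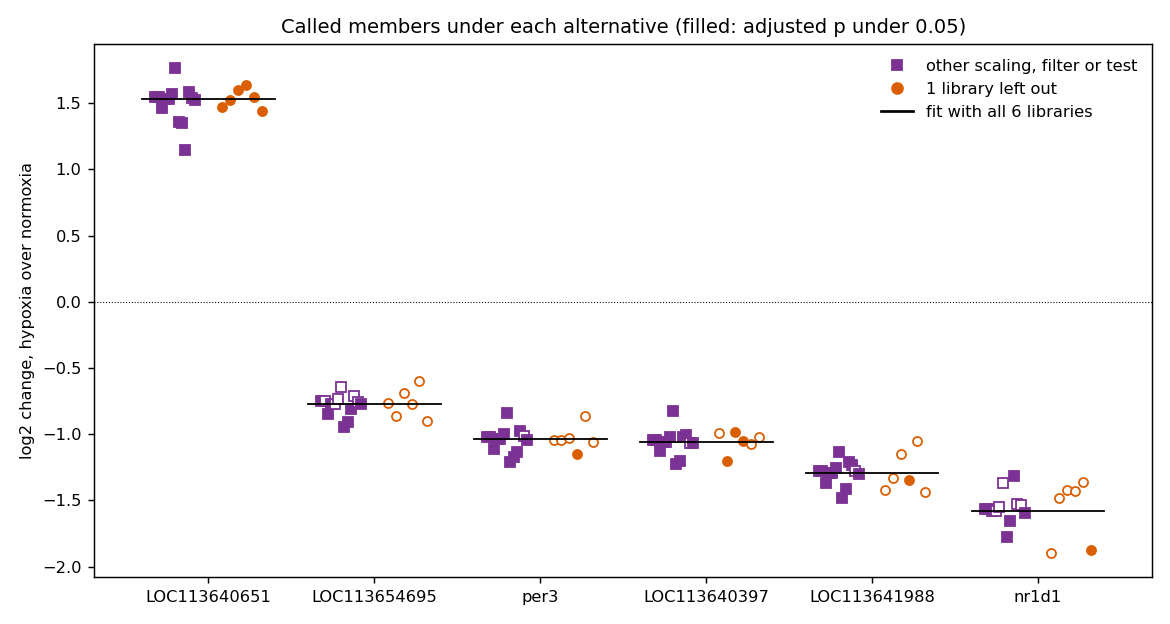
Log2 change of hypoxia over normoxia for the 6 members that passed the test, in the fit with all 6 libraries (line), in 12 or 13 other settings (squares) and with 1 library left out (circles), filled where the adjusted p was under 0.05. The changes keep their sign in each setting run, LOC113640651 is filled throughout and LOC113654695 is open in all 6 fits without 1 library.

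Over the 6 libraries the transcripts most like 4 of the members were sought by Pearson's correlation of TMM-scaled log2 CPM. The 9270 genes searched had a mean of at least 5 FPKM and a symbol or an informative description, and the members were left out. The 6 points are 2 groups of 3, so the difference between the groups enters each value, which is a description with no test. LOC113640651 was most like gpc5, a cell-surface proteoglycan gene (r = 0.997), and nop16 and gar1, genes of ribosome assembly (r = 0.995 each). LOC113640397 was most like the microfibril-associated glycoprotein 4 gene LOC113646633 (r = 0.999), oxr1 and inpp5b (r = 0.995 each). For per3 the genes were LOC113635574, tmem150c and LOC113655469, with r = 0.995 or above. For nr1d1 they were rhag, LOC113643569 and LOC113639169, with r = 0.993 or above.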

How the data were processed

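The authors sequenced poly(A)-selected gill RNA, with paired reads trimmed and aligned with cutadapt 1.9 and HISAT per the submitters' processing notes. Which counter, strand setting, genome build and annotation were used is not stated. The authors deposited 1 table of genes by library, in counts and in FPKM per the file headers, where 0 counts stand at 0.0001 FPKM. Columns were matched to samples by the code and number in the titles.

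Counts were fitted with edgeR 4.0.16 (glmQLFit, glmQLFTest, two-sided, TMM scaling) in R 4.3.3 over the 15312 genes with at least 1 FPKM in at least 3 of 6 libraries, and p-values were Benjamini-Hochberg adjusted over all of them. The common biological coefficient of variation was 0.329, so the spread between pools limits precision more than depth does. No pair of libraries of a group agreed within sampling noise (chi-square per gene of at least 137). DESeq2 1.42.0, limma 3.58.1, other scalings and filters, a length offset and leaving out each library were alternatives. Transcript length was estimated from counts, FPKM and library totals. The SE given for a log2 change was derived as its absolute size over the square root of edgeR's quasi-likelihood F statistic.

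The members and lists were chosen with earlier results of these data known. The genes named are all members, all list genes that passed, the BMAL genes and the tested ROR, PAR bZIP and NFIL3 genes. LOC113660099, nampt and the second gene of each description were added after their values were seen. Likeness took the 3 highest correlations for each member taken by name. RefSeq symbols of HZAU_Pvac_v1 served for gene order only, since 0 gene identifiers matched. No sequences are shown.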

Additional observations from a re-analysis of the deposited data

How the results depend on the processing

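The changes of the 6 members that passed kept their direction in each alternative run. The count of members called was 4 to 7 under 12 alternatives in scaling, filter and test, and 1 to 4 without 1 library. Leaving out replicate 1 of hypoxia or 2 of normoxia left 1, leaving out replicate 2 or 3 of hypoxia or 3 of normoxia left 2, and leaving out replicate 1 of normoxia left 4. With the replicate number as a block 1 member was called, LOC113640651. The deviations of same-numbered libraries from their group means had correlations of -0.084, 0.045 and -0.095. With 3 libraries per group these values cannot show whether such libraries are paired. Of the other clock genes, edgeR called 3 with all libraries. DESeq2 called 6 of the 27 tested, of which 1 was higher and 5 lower in hypoxia. Over all 15312 genes tested DESeq2 called 1792 higher and 1540 lower. With filterByExpr, with no filter, with the length offset and with the replicate block 1 was called, and 0 to 1 without 1 library. The count was 0 in edgeR without replicate 2 or 3 of hypoxia or 2 of normoxia. In these fits 9, 7 and 5 of the 27 had an unadjusted p under 0.05, against 3884, 4410 and 3353 of all 15312 genes. Over all genes, 1461 were called, 3332 by DESeq2, 779 without an abundance trend, 862 with no filter, 242 with the replicate block and 132 to 912 without 1 library. Of the calls 56.5% were higher in hypoxia, against 31.0% with library totals alone, 36.8% and 35.1% with limma at pseudocounts of 0.1 and 1, and 67.9% with the length offset. Signs of log2 differences were compared between settings for members and other clock genes only, not for cell type markers or glucocorticoid genes. Among the members and other clock genes named in the text, signs turned for LOC113635106 (0.164 with the length offset, -0.271 to 0.125 without 1 library), LOC113656228 (-0.039 to 0.320 without 1 library), LOC113635955 (-0.076 with library totals, -0.065 and -0.058 with limma) and nfil3 (-0.095 with library totals, -0.082 and -0.079 with limma, -0.047 to 0.180 without 1 library). The cause was not tested. Libraries of 44762764 counts or more leave depth a limit only for the lowest genes.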

Other observations

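Light-sensing opsins outside the eye can set fish clocks, and transcripts of the 10 such genes counted were near or below detection in these gill libraries. Of 10 genes described as melanopsin, opsin-3, opsin-5 or vertebrate ancient opsin, 7 had 0 counts in all 6 libraries, and the largest count of any of them in a library was 20. Opsins under other descriptions were not counted among them, and the rhodopsin gene rho, a retinal marker, had 93 to 340 counts per library. A count of 0 allows up to 3 counts per library, or 0.0545 to 0.0670 CPM, by counting error only.

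Period 1 genes of mammals respond to glucocorticoids. The period 1-like gene here, LOC113635106, did not pass the test (log2 difference -0.105, edgeR adjusted p = 0.770). In the table were 5 genes used as readouts of glucocorticoids, or their receptor. They were listed with earlier results of these data known, so counts over them are no evidence about glucocorticoids. Of the 5 genes edgeR called 1 and DESeq2 called 3, against 1461 and 3332 of all 15312 genes tested. The transcription factor gene zbtb16 rose, at 3.24, 3.43 and 3.94 FPKM in hypoxia and 0.560, 0.700 and 0.531 FPKM in normoxia (log2 change 2.72 ± 0.17 SE, edgeR adjusted p = 0.00204). It met the filter of at least 1 FPKM only through its hypoxia libraries. The chaperone gene fkbp5 ran widely in both groups, at 99.5 to 360.3 FPKM in hypoxia and 175.8 to 325.0 FPKM in normoxia, and did not pass the test. The gene klf9 had 6.35 to 10.9 FPKM in hypoxia and 5.22 to 5.69 FPKM in normoxia, without overlap, and did not pass the test (edgeR adjusted p = 0.123). The kinase gene sgk1 had 13.7 to 16.5 FPKM in hypoxia and 10.5 to 12.4 FPKM in normoxia, without overlap (log2 difference 0.55, edgeR adjusted p = 0.0710). The receptor gene nr3c1 had 6.85 to 10.3 FPKM in hypoxia and 12.4 to 13.3 FPKM in normoxia, without overlap (log2 difference -0.43, edgeR adjusted p = 0.0747). Every hypoxia library stood above every normoxia library in 3 of the 5 genes and below in 1. Among all genes tested such separation was seen in 11.4% and 25.9%.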
